A study of Bos grunniens and Bos grunniens x Bos taurus with 6 samples.

Results

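The genes described here carry out the beta-oxidation of fatty acids in mitochondria and peroxisomes, together with the carnitine-dependent entry of fatty acids into mitochondria and its control. They are 36 genes, taken from a list of symbols. Each is represented by the gene identifier that held most of the reads bearing its symbol, and all transcripts of that identifier were summed. Of the 36 genes, 33 had at least 30 reads pooled over the 6 libraries and were tested, out of 10397 tested among 31044 gene identifiers in all. The samples were of longissimus dorsi, a long back muscle, from yak (labelled Bos grunniens, 3 libraries) and from cattle-yak, its hybrid with cattle (labelled Bos grunniens x Bos taurus, 3 libraries). No treatment is named for either group. Complementary DNA of whole transcripts was sequenced as long nanopore reads. The sources used here do not give sex, age, feeding or sequencing batch. They do not state either whether a group's 3 samples are 3 animals. The p-values therefore compare differences with the spread of these samples, some of which may be technical.

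Long-chain fatty acids enter mitochondria as carnitine esters, made by carnitine palmitoyltransferase at the outer membrane, and malonyl-CoA inhibits that enzyme. Inside, each turn of the cycle dehydrogenates, hydrates, dehydrogenates again and cleaves the chain, releasing acetyl-CoA. Electrons from the acyl-CoA dehydrogenases pass through the electron transfer flavoprotein and its dehydrogenase to ubiquinone. Skeletal muscle uses this pathway at rest and in sustained work, and slow fibres depend on it more than fast fibres do.

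The libraries held 2350851 to 2769106 counted reads, and 19948 to 20355 genes were detected in yak against 21898 to 24310 in cattle-yak. The pathway genes took 0.225%, 0.229% and 0.247% of the reads of the yak libraries and 0.248%, 0.227% and 0.221% of those of the cattle-yak libraries, so the share overlapped between the groups. Over all genes, the groups separated on the first principal component (46.6% of the variance). Markers of skeletal muscle were the most abundant of the lists examined, at 178847 to 202711 CPM (read counts scaled between libraries with edgeR's TMM method), summed over 6 identifiers in yak and 116522 to 134434 in cattle-yak. Of these, 3 fell and 1 rose. The ACTA1 identifier had the most reads of the 6, and 1.6% of them bore that symbol. Of the reads of the MYH7 identifier, also a slow-fibre marker, 44.3% bore that symbol. Summed slow-fibre markers spanned 19969 to 28081 CPM in yak and 22995 to 25630 in cattle-yak, so they overlapped. Summed fast-fibre markers spanned 106809 to 120112 and 79958 to 105897 CPM, and 2 of 6 tested fell. Summed adipocyte markers spanned 19.1 to 25.8 CPM in yak and 14.1 to 34.6 in cattle-yak. Of the 2 tested, the PLIN4 identifier rose (log2 fold change 1.45, adjusted p = 0.0168) and FABP4 did not pass. Of the reads of the PLIN4 identifier, 24.1% bore that symbol. No read bore the symbol of the adipocyte markers ADIPOQ, PLIN1, LEP or LIPE, or of ALB and UMOD, markers of liver and kidney. Reads of these genes under another symbol or none are not counted in that.

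Of the tested pathway genes, 7 of 33 (21.2%) passed the threshold, an adjusted p under 0.05 in edgeR's quasi-likelihood test with Benjamini-Hochberg adjustment over all tested genes. Over all tested genes 1040 of 10397 passed, 4.92% higher and 5.08% lower in cattle-yak. Of the pathway genes, 3 rose and 4 fell, and the median log2 fold change was -0.04 beside 0.04 over all tested genes. Among genes with 100 or more pooled reads, 6 of 27 pathway genes passed (22.2%), beside 13.7% of all such genes. The 3 that rose, ACACB, MLYCD and the CPT1A identifier, were listed under the entry of fatty acids into mitochondria and its control. ACACB makes malonyl-CoA and MLYCD removes it. Of the reads of the CPT1A identifier, 4.3% bore that symbol. The 4 that fell, DECR1, ETFDH, ETFA and HADH, act inside the mitochondrion, on unsaturated chains, on electron transfer or in the second dehydrogenation. These positions in the pathway are a description of 7 genes and were not tested as groups.

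**Figure D1:**
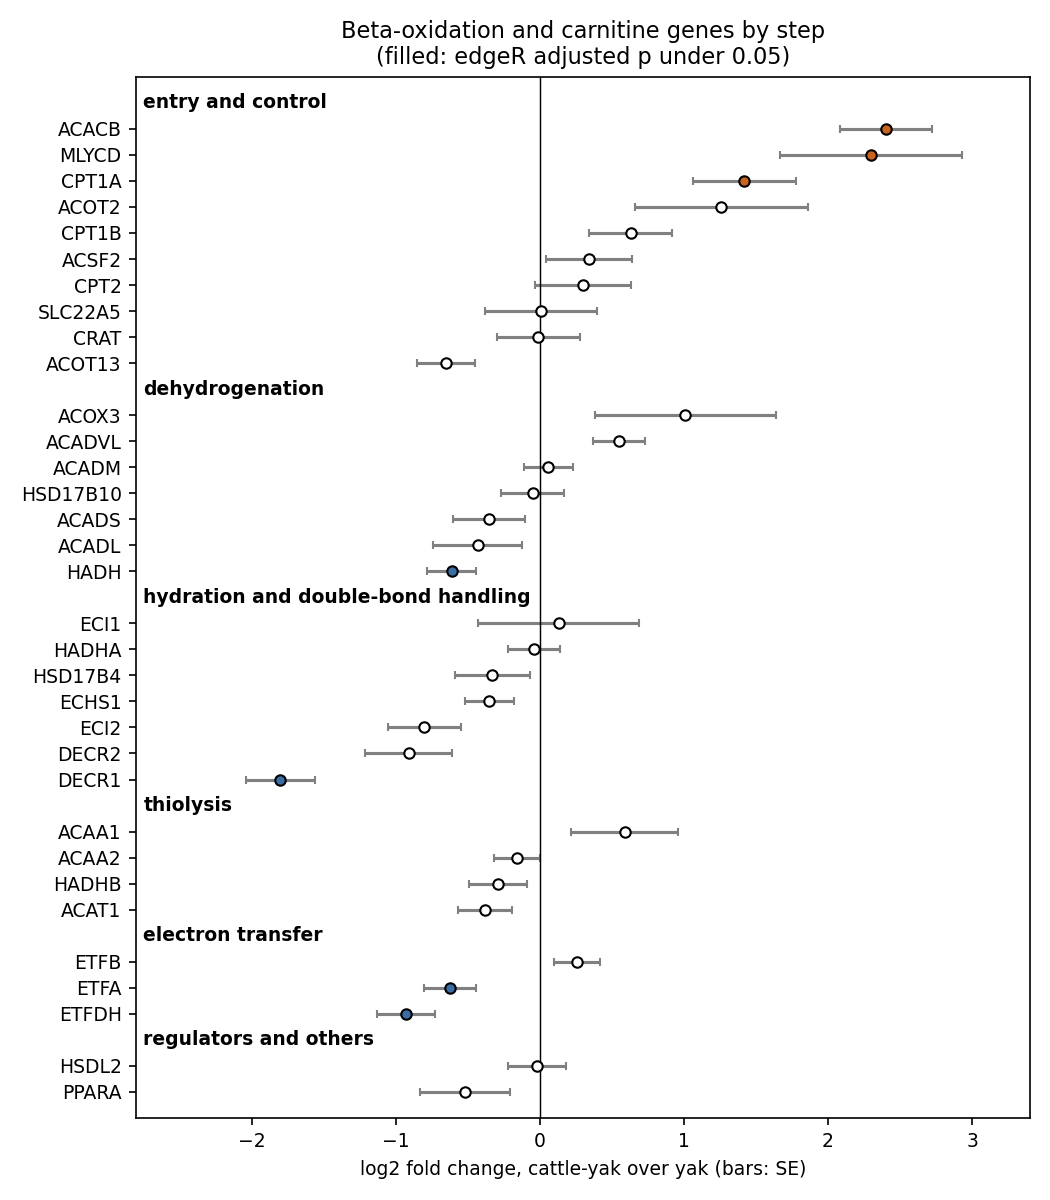
Log2 fold change of cattle-yak over yak with error bars (horizontal axis, edgeR) for the 33 tested pathway genes. Genes are ordered by step of the pathway (vertical axis), with filled marks for those past an adjusted p of 0.05. The genes that rose lie in the entry and control step, and those that fell lie in dehydrogenation, double-bond handling and electron transfer.

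TMM scaling corrects for a few very abundant genes that take up reads. CPM are not per length, so levels are compared within a gene and not between genes. In bulk muscle, fewer cells of a type and less RNA per cell cannot be told apart. Markers of mitochondrial content differed between the groups in the same libraries: summed over 6 genes they were 5574, 6801 and 6897 CPM in yak and 5047, 4039 and 5145 CPM in cattle-yak. Of the 6, all tested, CS, SDHA and VDAC1 fell, by 0.79, 0.61 and 0.59 on the log2 scale. TFAM, COX4I1 and ATP5F1B did not pass (log2 fold changes -0.69, -0.31 and -0.40), and libraries of TFAM and ATP5F1B overlapped between the groups. Macrophage markers, summed over 6 genes, were higher in cattle-yak (34 to 73.1 CPM) than in yak (14.9 to 25.5 CPM), with 2 of 4 tested rising. Erythroid markers were lower (0.363 to 2.34 against 2.73 to 25.4 CPM), with 2 of 2 tested falling. The third yak library had 1 read of the HBB identifier and 5 of the HBA identifier, as many as the first cattle-yak library. Of the reads of these identifiers, 17.4% and 37.3% bore the symbols HBB and HBA. Fibroblast markers were lower too (206 to 375 against 377 to 474 CPM), with 2 of 4 tested falling, COL3A1 (adjusted p = 0.00244) and LUM (adjusted p = 0.000658). COL1A1 and DCN overlapped between the groups and did not pass (log2 fold changes -0.59 and 0.02). Endothelial markers overlapped (28.9 to 57.7 against 24.9 to 31.2 CPM), and of 3 tested VWF rose (log2 fold change 2.84). The part of any of these in the pathway genes' differences was not tested.

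The scaling mattered for the balance of directions. With library size alone, 763 genes rose and 310 fell over all genes, in place of 512 and 528, and the all-gene median log2 fold change moved from 0.04 to 0.23. Among the pathway genes 4 rose and 2 fell under that scaling, in place of 3 and 4. Without overlap between the 3 yak and 3 cattle-yak libraries, 7 of the 33 pathway genes were higher (15.2% of all tested genes) and 8 were lower (14.6% of all tested genes) in cattle-yak.

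The largest rise was in ACACB (ENSBGRG00000026733), the acetyl-CoA carboxylase at the mitochondrial surface that makes malonyl-CoA. Its level was 7.12, 7 and 10.5 CPM in yak and 48.1, 57.3 and 25.4 CPM in cattle-yak. Every cattle-yak library lay above every yak library, and the third cattle-yak library was the lowest of its group. The means were 8.2 ± 1.97 and 43.6 ± 16.4 CPM (SD, n = 3 each). In edgeR's fit this was 5.29-fold, a log2 fold change of 2.40 ± 0.32 (SE) with an adjusted p of 0.000315. The gene passed under each of its 18 alternative settings, with adjusted p-values of at most 0.00405.

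MLYCD (ENSBGRG00000018041), malonyl-CoA decarboxylase, removes the malonyl-CoA that ACACB makes. It was covered by 1, 5 and 3 reads in yak libraries and by 6, 21 and 27 reads in cattle-yak libraries, or 1.33 ± 0.871 and 6.74 ± 3.9 CPM (SD, n = 3 each). The groups did not overlap, although the highest yak library was at 2.19 CPM and the lowest cattle-yak library at 2.34 CPM. The log2 fold change was 2.30 ± 0.63 with an adjusted p of 0.0317 in edgeR. At these read counts 1 library decided the call: the adjusted p was 0.108 without the first yak library, 0.102 without the third yak library, 0.0789 without the second cattle-yak library and 0.116 without the third cattle-yak library. It was 0.167 with limma-voom and 0.0896 in assembled transcripts.

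The identifier that stood for CPT1A (ENSBGRG00000008216), the carnitine palmitoyltransferase typical of liver, was covered by 9, 8 and 11 reads in the yak libraries and by 20, 33 and 36 reads in the cattle-yak libraries. All cattle-yak libraries were above all yak libraries, at 11.2 ± 2.93 CPM against 4.17 ± 0.769 CPM (SD, n = 3 each). The log2 fold change was 1.42 ± 0.36 with an adjusted p of 0.0215 in edgeR. Of the 117 reads of this identifier, 4.3% bore the symbol CPT1A, and 107 lay in a single assembled transcript with no symbol and no description (TALONT000768605). The rise is therefore one of the identifier, and reads bearing the symbol were too few for a test of their own. The call was lost with DESeq2 (adjusted p = 0.0654), without any 1 of the 3 yak libraries (0.0692, 0.0851 and 0.0527) and without the second or the third cattle-yak library (0.0604 and 0.072).

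CPT1B, the muscle form of the same enzyme, was at 8.46, 11.8 and 9.11 CPM in yak and 15.2, 16.2 and 14.2 CPM in cattle-yak. Its groups did not overlap either, but the log2 fold change of 0.63 ± 0.29 had an adjusted p of 0.181 in edgeR. Of the reads of both forms together, the CPT1A identifier held 32.1%, 22.9% and 35.5% in yak and 33.9%, 44% and 48% in cattle-yak, so this share overlapped between the groups. CPT2, the inner-membrane partner that turns the carnitine ester back into acyl-CoA, was at 6.85 ± 1.17 and 8.45 ± 0.539 CPM (SD, n = 3 each; adjusted p = 0.606).

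ACOT13, a mitochondrial thioesterase that releases free fatty acids from acyl-CoA, had the most reads of the entry and control genes. It was at 43.6, 44.2 and 43.3 CPM in yak and 30.1, 23.9 and 29.8 CPM in cattle-yak. The yak libraries lay close together and above all cattle-yak libraries. The log2 fold change of -0.65 ± 0.20 missed the threshold by little, with an adjusted p of 0.0507 in edgeR. The other genes of this step were CRAT, which buffers acetyl groups with carnitine, SLC22A5, the carnitine importer of the cell membrane, ACSF2, an acyl-CoA synthetase, and ACOT2, a thioesterase of the mitochondrial matrix. CRAT and SLC22A5 had log2 fold changes of -0.01 and 0.01, and both changed sign under several settings. ACSF2 was at 0.34 (adjusted p = 0.511) and the ACOT2 identifier at 1.26 (adjusted p = 0.206). Only 13% of the 46 reads of that identifier bore the symbol ACOT2, and 33 of them bore the symbol ACOT4. In all, 3 of 10 genes of entry and control rose, beside 4.92% of all tested genes. DESeq2 called 2 of the 10 and limma-voom 2. The median log2 fold change of the 10 was 0.49.

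**Figure D2:**
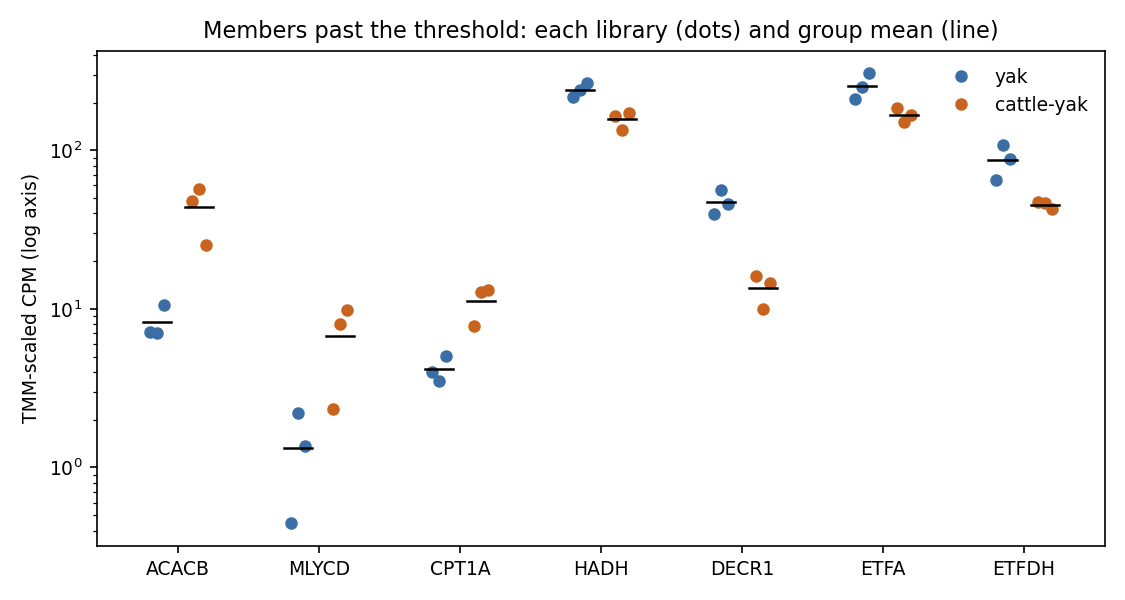
TMM-scaled CPM (vertical axis, log scale) in each of the 6 libraries for the 7 pathway genes past an adjusted p of 0.05, with points for libraries and bars for group means. In each of the 7 genes the yak and cattle-yak libraries do not overlap, from ACACB at 7 to 10.5 CPM against 25.4 to 57.3 CPM to HADH at 216 to 264 CPM against 134 to 172 CPM.

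The first dehydrogenation is made by acyl-CoA dehydrogenases of different chain-length preference, and the second by hydroxyacyl-CoA dehydrogenases. Of the 9 genes of these steps, 7 were tested and 1 fell, beside 5.08% of all tested genes. The 7 had a median log2 fold change of -0.05. HADH (ENSBGRG00000006801), the mitochondrial hydroxyacyl-CoA dehydrogenase of short and medium chains, was at 216, 239 and 264 CPM in yak and 164, 134 and 172 CPM in cattle-yak. All yak libraries were above all cattle-yak libraries. The means of 240 ± 23.7 and 157 ± 19.8 CPM (SD, n = 3 each) gave a log2 fold change of -0.61 ± 0.17 and an adjusted p of 0.0311 in edgeR. The call ended with library size alone (adjusted p = 0.0934), without any 1 of the 3 yak libraries (0.0516, 0.0851 and 0.147) and without the second cattle-yak library (0.0939).

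ACADM, the medium-chain acyl-CoA dehydrogenase, had the most reads of the dehydrogenases, at 186, 256 and 210 CPM in yak and 242, 236 and 202 CPM in cattle-yak. The libraries of the groups interleaved, and the log2 fold change was 0.06 ± 0.17 (95% interval -0.28 to 0.40, adjusted p = 0.863 in edgeR). Its sign changed under 3 of 19 alternative settings. ACADVL, which handles very long chains at the inner membrane, was at 102, 128 and 151 CPM in yak and 199, 169 and 190 CPM in cattle-yak. Every cattle-yak library was above every yak library, but the log2 fold change of 0.55 ± 0.18 had an adjusted p of 0.065. ACADVL passed under 4 alternative settings, library size alone (adjusted p = 0.011) and assembled transcripts (0.00916) among them. ACADVL held 30.4%, 30.6% and 37.7% of the summed reads of ACADVL, ACADL, ACADM and ACADS in yak and 41.7%, 39.4% and 44.8% in cattle-yak. This share of reads among the acyl-CoA dehydrogenases was higher in all 3 cattle-yak libraries, and as reads are not per length it is no share of molecules.

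The long-chain and short-chain enzymes ACADL and ACADS had log2 fold changes of -0.43 and -0.35 with overlapping libraries. ACOX3, an acyl-CoA oxidase of peroxisomes, was at 1.94 ± 0.944 CPM in yak and 3.97 ± 2.77 CPM in cattle-yak (SD, n = 3 each). HSD17B10, a mitochondrial hydroxyacyl-CoA dehydrogenase that also acts in tRNA processing, was at 87.7 ± 20.7 and 84.5 ± 21.2 CPM. None of these 4 passed the test in edgeR, and each was above an unadjusted p of 0.05. ACAD9, better known as an assembly factor of respiratory complex I, was covered by 4, 1 and 5 reads in yak libraries and by 2, 2 and 4 in cattle-yak libraries, and was not tested. ACAD10 was covered by 5, 3 and 0 reads in yak libraries and by 1, 1 and 2 in cattle-yak libraries, and was not tested either.

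The hydration step and the enzymes that make unsaturated chains fit for the cycle form the next set. In it 1 of 7 genes fell, beside 5.08% of all tested genes, and the median log2 fold change was -0.35. DECR1 (ENSBGRG00000011742), the mitochondrial dienoyl-CoA reductase needed for many unsaturated fatty acids, had the largest fall of all pathway genes. It was at 39.6, 56 and 46 CPM in yak and 16, 10 and 14.5 CPM in cattle-yak. The lowest yak library was above the highest cattle-yak library. The means of 47.2 ± 8.24 and 13.5 ± 3.13 CPM (SD, n = 3 each) differed 3.48-fold, a log2 fold change of -1.80 ± 0.24 with an adjusted p of 0.000292 in edgeR. The gene passed under each of its 19 alternative settings.

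ECI2 and the identifier that stood for DECR2 were just outside the threshold. Both enzymes act on double bonds in peroxisomes, ECI2 also in mitochondria. ECI2 was at 162, 106 and 163 CPM in yak and 63.7, 67.3 and 116 CPM in cattle-yak. Cattle-yak library 3 was above yak library 2, so the groups overlapped, and the log2 fold change of -0.80 ± 0.25 had an adjusted p of 0.059 in edgeR. ECI2 passed under 6 of 19 alternative settings, among them without the second yak library (adjusted p = 0.0344) and without the third cattle-yak library (0.00843). Counted in reference transcripts the log2 fold change was -0.14 (adjusted p = 0.788), and in assembled transcripts it was -1.15 (0.00942). The DECR2 identifier was at 18.3, 12.7 and 14.1 CPM in yak and 9.38, 6.54 and 7.98 CPM in cattle-yak, without overlap. Its log2 fold change was -0.91 ± 0.30 with an adjusted p of 0.0688. Of its 164 reads, 43 bore the symbol DECR2 (26.2%) and more, 79, bore the symbol NME4. Counted in rows bearing DECR2 only, the log2 fold change was -1.26 (adjusted p = 0.184 in edgeR). ECHS1, the main short-chain enoyl-CoA hydratase, was the most read gene of the set at 198, 151 and 195 CPM in yak and 160, 129 and 139 CPM in cattle-yak. Its libraries overlapped, with a log2 fold change of -0.35 ± 0.17 and an adjusted p of 0.232.

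HADHA is the hydratase and long-chain dehydrogenase subunit of the trifunctional protein, and HADHB is its thiolase subunit. HADHA was at 94.7 ± 11.9 CPM in yak and 91.9 ± 10 CPM in cattle-yak, and HADHB at 152 ± 19.2 and 124 ± 31.3 CPM (SD, n = 3 each). Neither passed the test in edgeR (adjusted p = 0.912 and 0.384). The ratio of HADHA to HADHB CPM was 0.509, 0.664 and 0.715 in yak and 0.648, 0.675 and 0.981 in cattle-yak. The ratio overlapped between the groups (difference of mean log2 ratio 0.28, two-sided exact permutation test, p = 0.5, n = 3 each). HSD17B4, the bifunctional enzyme of peroxisomes, had a log2 fold change of -0.33, and ECI1, a mitochondrial isomerase with 41 reads in all, had 0.13. Libraries of both overlapped between the groups.

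Thiolases cut acetyl-CoA from the chain, and none of their 4 genes passed the test in edgeR. None was under an unadjusted p of 0.05 either, and 0 were called by DESeq2 and 0 by limma-voom. ACAA2, the mitochondrial thiolase of medium chains, was at 243, 257 and 229 CPM in yak and 238, 195 and 221 CPM in cattle-yak. Its libraries overlapped, and the log2 fold change was -0.16 ± 0.16 (95% interval -0.47 to 0.16). ACAT1, which also works in ketone and isoleucine breakdown, was at 177, 158 and 248 CPM in yak and 150, 144 and 153 CPM in cattle-yak. Its cattle-yak libraries were all below its yak libraries, of which the third was far above the others, and the adjusted p was 0.211. ACAA1, the thiolase of peroxisomes, was at 4.9, 3.5 and 5.92 CPM in yak and 7.03, 7.31 and 7.26 CPM in cattle-yak, also without overlap, and had an adjusted p of 0.349. The median log2 fold change of the thiolase genes was -0.23.

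Electron transfer held 2 of the 4 genes that fell, while 5.08% of all tested genes fell. ETFDH (ENSBGRG00000013455), the dehydrogenase that hands electrons from the flavoprotein to ubiquinone, was at 65, 108 and 87.5 CPM in yak and 47.3, 46.2 and 42.8 CPM in cattle-yak. The cattle-yak libraries lay close together and below all yak libraries. The means of 86.7 ± 21.3 and 45.4 ± 2.33 CPM (SD, n = 3 each) gave a log2 fold change of -0.93 ± 0.20 and an adjusted p of 0.0092 in edgeR. The adjusted p was 0.0541 without the second yak library, the highest of its group.

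ETFA (ENSBGRG00000020641), the alpha subunit of the electron transfer flavoprotein, was at 210, 251 and 306 CPM in yak and 185, 150 and 166 CPM in cattle-yak. No cattle-yak library reached a yak library. Its log2 fold change was -0.62 ± 0.18 with an adjusted p of 0.0404 in edgeR. This call was the least stable of the 7. It ended with limma-voom (adjusted p = 0.051), with library size alone (0.126), without the second or the third yak library (0.0951 and 0.215), and without the second or the third cattle-yak library (0.107 and 0.0888). Counted in reference transcripts the adjusted p was 0.0552, and in assembled transcripts the log2 fold change was -0.10 with an adjusted p of 0.813.

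ETFB, the beta subunit, was at 154, 197 and 178 CPM in yak and 210, 200 and 224 CPM in cattle-yak. These libraries did not overlap and lay the other way from ETFA, but the log2 fold change of 0.26 ± 0.16 had an adjusted p of 0.357 in edgeR. The ratio of ETFA to ETFB CPM was 1.36, 1.27 and 1.72 in yak and 0.881, 0.751 and 0.741 in cattle-yak. All yak ratios were above 1 and all cattle-yak ratios below it, which is a matter of reads and not of molecules, since the genes differ in length. The mean log2 ratio was lower by 0.87 in cattle-yak (a difference of -0.87, lower in 3 of 3 libraries). The two-sided exact permutation test gave p = 0.1, the smallest that 3 libraries against 3 can give, so the design could not reach 0.05. Leaving out each library in turn gave differences from -0.96 to -0.74.

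Of the regulators and remaining genes, none of 2 tested passed in edgeR, and none was under an unadjusted p of 0.05 or called by DESeq2 or limma-voom. HSDL2, a dehydrogenase-like protein of peroxisomes and mitochondria, was at 53.4, 87.5 and 59.2 CPM in yak and 70, 64.3 and 62.8 CPM in cattle-yak, with overlap. The identifier that stood for PPARA, the nuclear receptor that drives many genes of fatty acid oxidation, was at 12.9, 11.4 and 9.57 CPM in yak and 7.82, 7.31 and 8.35 CPM in cattle-yak. All its yak libraries were above its cattle-yak libraries (log2 fold change -0.52, adjusted p = 0.31), but only 4.3% of its reads bore the symbol. PPARD, the related receptor prominent in muscle, was covered by 1 read in each yak library and by 3, 2 and 6 reads in cattle-yak libraries, and was not tested.

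**Figure D3:**
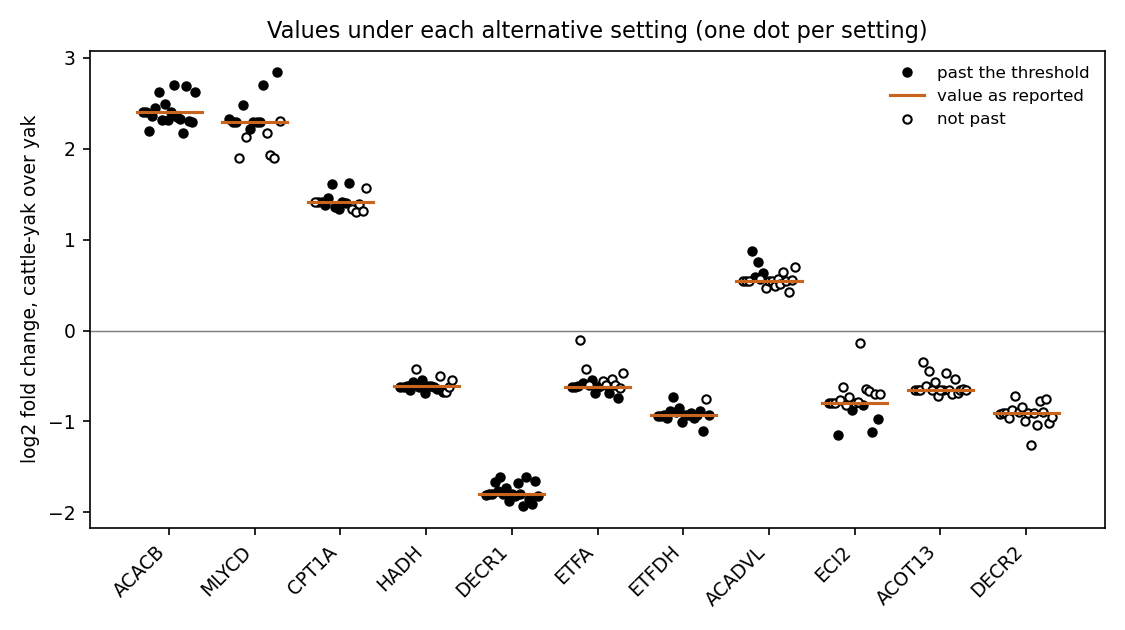
Log2 fold change of cattle-yak over yak of tested pathway genes under the alternative settings, with the reported value marked. For each of the 7 called genes, ACACB and DECR1 among them, the values lie on a single side of 0.

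Long reads give the transcript as well as the gene. The 36 genes had 850 transcripts with reads, 42 of them reference transcripts of the yak annotation and the rest assembled from the reads. Reference transcripts held 34.6% of the 34350 reads. Of 146 transcripts tested, in 27 of the genes, 16 passed an adjusted p of 0.05 over all tested transcripts in edgeR. That was 11.0%, beside 12.8% of all tested transcripts. Of the 16, 7 rose (6.52% of all tested transcripts rose) and 9 fell (6.27% of all fell), in 11 genes.

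In DECR1 the fall was seen in the reference transcript (ENSBGRT00000021374), which held 61.8% ± 3.38 (SD, n = 3) of the gene's yak reads and 55.7% ± 8.29 (SD, n = 3) of its cattle-yak reads. That transcript was covered by 58, 79 and 59 reads in yak libraries and by 25, 12 and 24 reads in cattle-yak libraries, a log2 fold change of -1.88 ± 0.31 with an adjusted p of 0.000693 in edgeR. It passed under each of 11 alternative settings. In DECR1, 2 assembled transcripts of 38 reads each also fell, by 2.27 and 2.29 on the log2 scale. Both of these calls were lost with limma-voom and without 4 of the 6 libraries in turn.

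In ECI2, which as a gene missed the threshold, the assembled transcript TALONT000686115 was covered by 137, 90 and 108 reads in yak libraries and by 35, 28 and 76 reads in cattle-yak libraries. It fell, with a log2 fold change of -1.49 ± 0.32 and an adjusted p of 0.00627 in edgeR, and passed under each of 11 alternative settings. It made up 35.1% ± 4.17 of the gene's reads in yak but 20.4% ± 3.98 in cattle-yak (SD, n = 3 each), without overlap. In ETFA the reference transcript (ENSBGRT00000038859) fell by 0.75 on the log2 scale (adjusted p = 0.017). That call was lost with library size alone (0.0559), without the third yak library (0.111) and without the second cattle-yak library (0.0641). In ETFDH the leading assembled transcript (TALONT000151546) fell by 1.12 on the log2 scale (adjusted p = 0.00693) and passed under each of 11 alternative settings.

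The main transcript of HADH (TALONT000914161) held 73% of the gene's reads and had a log2 fold change of -0.68 (adjusted p = 0.0245 in edgeR). This call was lost with library size alone (adjusted p = 0.0756), and without the second or the third yak library or the second cattle-yak library (0.0638, 0.118 and 0.0961). In ACACB, which had no read in a reference transcript, TALONT000640706 rose from 0, 5 and 3 reads in the yak libraries to 29, 60 and 14 reads in the cattle-yak libraries (log2 fold change 3.45 ± 0.80, adjusted p = 0.0221). TALONT000636132 of the same gene rose from 1, 2 and 0 reads in the yak libraries to 12, 16 and 14 reads in the cattle-yak libraries (log2 fold change 3.47 ± 0.68, adjusted p = 0.00257). Both were lost with limma-voom (adjusted p = 0.242 and 0.192), and the first also without the third yak library (0.0872). Single transcripts passed as well in ACADVL (TALONT001437856, 1.25), HSDL2 (TALONT000998088, 1.84) and DECR2 (TALONT001490271, -1.79, named NME4). In each of these 3 the call was lost without 5 or more of the 6 libraries in turn.

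The total of ACADM did not pass, while shares of its transcripts differed between the groups. Its reference transcript (ENSBGRT00000006243) held 38.6%, 43.7% and 45.6% of the gene's reads in the yak libraries but 34.2%, 27% and 32.7% in the cattle-yak libraries. The assembled transcript TALONT001131148 held 16.8%, 16.7% and 14.3% in yak and 25.6%, 30% and 27.7% in cattle-yak. Neither share overlapped between the groups. TALONT001131148 rose as a transcript (log2 fold change 0.89 ± 0.23, adjusted p = 0.0148 in edgeR), a call lost without the first yak library (0.0698), the third yak library (0.0758) or the second cattle-yak library (0.0541). A smaller assembled transcript, TALONT001133073, rose by 1.11 (adjusted p = 0.0484), a call lost with limma-voom (0.0703) and without each of the 6 libraries in turn (0.0516 to 0.178).

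Transcript usage, tested over transcripts with at least 5% of their gene's reads with edgeR's diffSpliceDGE, passed in ACADM (adjusted p = 0.0277), 1 of 18 pathway genes tested, beside 5.38% of all genes tested. This call was lost without the first, the second or the third yak library (adjusted p = 0.0961, 0.0709 and 0.188) and without the second or the third cattle-yak library (0.171 and 0.0758). It was also lost with no minimum share (0.0864) and with the Simes method (0.264). HADH and HADHA followed, with adjusted p-values of 0.0562 and 0.0594.

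The share of a gene's reads in reference transcripts could be compared in 16 pathway genes with at least 30 reads of each kind. It was lower in cattle-yak without overlap in 9 of them (ACAA2, ACADL, ACADM, ACADVL, ACAT1, ETFA, HADHA, HSD17B4 and HSDL2), beside 20.7% of all 1677 genes compared in the same way. It was higher in 1, ECI2, beside 4.59% of all genes. The median difference was -8.33 percentage points over the 16 genes and -2.25 over all 1677. In HADHA the share was 57.7%, 54% and 56.7% in yak and 41.5%, 42.5% and 48.2% in cattle-yak. In ETFA it was 79.2%, 79.7% and 82.4% in yak and 70.8%, 71.3% and 72.7% in cattle-yak. In ECI2 it was 35.8%, 36% and 38.4% in yak and 44.8%, 52% and 50.3% in cattle-yak. As a hybrid, cattle-yak can carry cattle alleles beside yak alleles, and the reference identifiers are those of the yak. A different use of transcripts and a separate assembly of reads from cattle alleles cannot be told apart here.

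**Figure D4:**
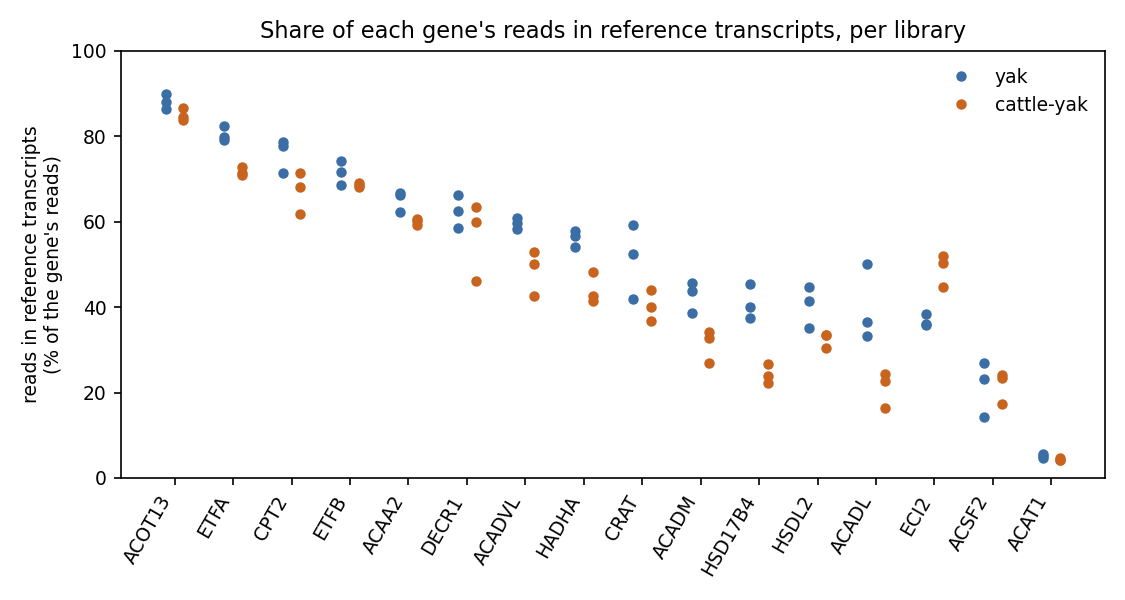
Percent of a gene's reads that lie in reference transcripts in each of the 6 libraries. Shown are the 16 pathway genes with at least 30 reads in reference and in assembled transcripts. In 9 genes, HADHA and ETFA among them, all cattle-yak libraries lie below all yak libraries, and in ECI2 they lie above.

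Further genes around the pathway were taken from a list of 65, chosen with earlier results of these data known. Counts from this list and its parts are therefore a description and no test of the list. It covers fatty acid activation and uptake, carnitine synthesis, further dehydrogenases, peroxisomal enzymes, ketone and odd-chain metabolism, and regulators with their targets. Of the 65 genes, 49 had enough reads for a test. Of the 49, 5 rose (4.92% of all tested genes rose), 10 fell (5.08% of all fell) and 34 did not pass. The median log2 fold change was -0.45, beside 0.04 over all tested genes. Fewer passed when the second or the third yak library was left out (9 and 7 genes in place of 15). The deposited annotation assigns genes to fatty acid degradation as well, a list used here after its values were seen. Of 14 tested genes of that list outside the 36, 4 fell and 10 did not pass, with a median log2 fold change of -0.58. Of 16 tested genes of that list among the 36, 1 fell and the median was -0.10.

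Of the regulators and their targets, 4 of 10 tested rose (UCP3, PDK4, ANGPTL4 and PLIN5) and 1 fell (SIRT3). Over all tested genes 4.92% rose and 5.08% fell. UCP3, a mitochondrial carrier of muscle induced by fatty acids, was at 65.4, 98.4 and 46.5 CPM in yak and 647, 790 and 971 CPM in cattle-yak (log2 fold change 3.52 ± 0.27, adjusted p = 9.4e-06 in edgeR). PDK4, the kinase that shuts pyruvate dehydrogenase, was at 300, 280 and 400 CPM in yak and 1918, 1222 and 1055 CPM in cattle-yak (2.10 ± 0.23, adjusted p = 7.9e-05). Both had no cattle-yak library near the yak range and passed under each of 15 alternative settings. ANGPTL4, an inhibitor of lipoprotein lipase, was at 0.588 ± 0.51 CPM in yak and 5.7 ± 2.18 CPM in cattle-yak (SD, n = 3 each; 3.15, adjusted p = 0.00926; 0.0856 with limma-voom). PLIN5, a lipid droplet protein of oxidative tissues, was at 1.48 ± 1.12 and 6.02 ± 2.25 CPM (1.99, adjusted p = 0.0394), a call lost under 6 of 14 alternative settings, DESeq2 (0.0882) and limma-voom (0.0916) among them. Among the 9 tested genes of activation and uptake 1 rose and 1 fell. The gene that rose was CD36, the fatty acid translocase of the cell membrane, at 65, 69.1 and 69.7 CPM in yak and 120, 103 and 108 CPM in cattle-yak (0.70, adjusted p = 0.0165). The CD36 call was lost without any 1 of the 3 yak libraries (adjusted p = 0.0667, 0.052 and 0.0669).

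Of the peroxisomal and auxiliary enzymes 3 of 11 tested fell, of the ketone and odd-chain enzymes 3 of 6, and of the further dehydrogenases and oxidases 2 of 6, beside 5.08% of all tested genes. SIRT3, the mitochondrial deacetylase known to act on enzymes of beta-oxidation, was at 48.8 ± 8.98 CPM in yak and 18.1 ± 4.98 CPM in cattle-yak (SD, n = 3 each; log2 fold change -1.43, adjusted p = 0.00174 in edgeR). ECHDC2, an enoyl-CoA hydratase-like protein, was at 28.4 ± 4.17 and 10.7 ± 1.54 CPM (-1.40, adjusted p = 0.00265). ACADSB, the acyl-CoA dehydrogenase of short branched chains, was at 114 ± 28.4 and 53.3 ± 8.93 CPM (-1.09, adjusted p = 0.00418). These 3 genes passed under each of 15 alternative settings.

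MMUT and MCEE, the mutase and the epimerase that bring propionyl carbon to succinyl-CoA, fell by 1.08 and 0.73 on the log2 scale. GCDH, the dehydrogenase of lysine and tryptophan breakdown, fell by 0.78, and SCP2, a peroxisomal thiolase and sterol carrier, fell by 0.61. PCCB, a propionyl-CoA carboxylase subunit, and the DBI identifier, with 1.3% of its reads named for that acyl-CoA binding protein, fell with adjusted p-values of 0.0393 and 0.0492. The DBI call was lost under 14 of 15 alternative settings, that of MCEE under 9, PCCB under 8, SCP2 under 6, GCDH under 4 and MMUT under 1. Without the third yak library the adjusted p was 0.0591 for MMUT, 0.0973 for MCEE, 0.0803 for GCDH and 0.0608 for SCP2.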

How the data were processed

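The authors deposited read counts per transcript, whole numbers, and CPM, per the file headers. The deposited CPM equalled counts over the library total within 0.005. Tools named in the submitters' processing notes are minimap2, GSNAP and fastp. The build and the counting software are not given in the sources. Per the labels' protocols, TRIzol RNA (1 µg) went into SQK-PCS109 libraries.

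Transcript counts were summed by gene identifier. Transcripts with none (up to 0.00249% of the counts of a library) were dropped. Genes and transcripts with at least 30 pooled reads entered edgeR 4.0.16 under R 4.3.3 (TMM scaling, robust quasi-likelihood test, Benjamini-Hochberg adjustment, threshold 0.05), and transcript usage with diffSpliceDGE. The scripts were tested on counts simulated with a single dispersion for all genes. There the gene test found 29% of changes of 1 on the log2 scale and 77% of changes of 2. The transcript test found 8% and 64%. A gene or transcript that did not pass may therefore still differ. Of the simulated calls, 5.4% were false for genes and 12.1% for transcript usage. Alternatives used DESeq2 1.42.0, limma-voom (limma 3.58.1), other scalings and filters, other row choices and fits without each library. Python 3.11.15 with pandas 2.3.3 and matplotlib 3.10.9 made the tables and figures. Reads came from PCR without molecular identifiers and so do not count molecules. Overlapping genes and near-identical copies can share them.

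The genes and lists were chosen with earlier results of these data known. Values in every library were given for called genes and for the 2 most read genes of each step. Up to 2 called transcripts per gene and up to 12 called genes of the wider list, by smallest p, were named, and other genes beside these were named after their values were seen. One called gene of the wider list is not reported here by name. No sequence was used here.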

Additional observations from a re-analysis of the deposited data

How the results depend on the processing

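No called pathway gene changed sign under any alternative run, but 5 of the 7 lost the call under at least 1. Of 594 values of single genes under alternatives, 513 kept direction and side of the threshold, 27 lost the call, 11 gained a call and 43 changed sign, the last in 8 uncalled genes. The count of 7 called genes was 3 to 7 without each library in turn and 1 of 16 tested in reference transcripts only, where fewer genes had enough reads. The count over all genes, 1040, was 526 to 1057 without each library in turn, and that of the wider list, 15, was 7 to 15. The transcript count of 16 was 8 with limma-voom, 7 with a mean of at least 10 CPM and 5 to 13 without each library in turn. Genes with changed transcript usage numbered 4 with no minimum share, ACADM not among them (adjusted p = 0.0864), and 0 with the Simes method of edgeR (2 at an unadjusted p under 0.05), in place of 1, and 0 to 1 without each library in turn. Some of these settings hold fewer samples or genes, and the cause of these changes was not tested.

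The replicate numbers are not stated to pair samples, and deviations of same-numbered libraries correlated at -0.04, -0.01 and 0.01. With the replicate number as a block ETFA lost its call (adjusted p = 0.0629 in edgeR) and ECI2 gained one (0.0202), so that 7 pathway genes, 1010 genes in all, 13 genes of the wider list and 11 transcripts were called, and usage was called in 0 genes (4 at an unadjusted p under 0.05).

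The log2 fold changes that changed sign were all near 0. With library size alone HADHA was 0.15, ACAA2 0.04, HSD17B10 0.14, CRAT 0.18 and HSDL2 0.18. With a mean of at least 10 CPM HADHA was 0.03, HSD17B10 0.03, CRAT 0.06 and HSDL2 0.05. With filterByExpr CRAT was 0.03 and HSDL2 0.02. With no filter ACADM was -0.02 and SLC22A5 -0.07. With limma-voom SLC22A5 was -0.01 and HSDL2 0.01, and with the replicate block they were -6e-05 and 0.005. By rows, ACADM was -0.16 in reference transcripts. In assembled transcripts HADHA was 0.27, ACAA2 0.005, CRAT 0.26 and HSDL2 0.13. With all identifiers of the symbol CRAT was 0.03 and HSDL2 0.02, and with own-symbol rows SLC22A5 was -0.13. Without each library in turn ACADM ranged from -0.04 to 0.20, HADHA from -0.11 to 0.07, ECI1 from -0.19 to 0.51, HSD17B10 from -0.26 to 0.10, CRAT from -0.22 to 0.23, SLC22A5 from -0.10 to 0.21 and HSDL2 from -0.16 to 0.22.

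Depth limits the genes with few reads: ACAD9, ACAD10 and PPARD were not tested, and the calls of MLYCD and the CPT1A identifier rest on 63 and 117 reads. Genes with too few reads under a setting gave no value there. The ratio of HADHA to HADHB could not be computed in reference transcripts, of which HADHB had 1 read in all.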
